A study of Mus musculus with 9 samples.

Results

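The genes described here encode the proteins of the cytosolic ribosome, the machine that translates nuclear messages, together with 5 close relatives (paralogs) of these genes. They were chosen by symbol, as protein-coding genes of GRCm38 named Rpl or Rps with a number, or Rplp0, Rplp1, Rplp2 or Rpsa, with at least 100 counts summed over 9 libraries. Of 53379 gene IDs in the count tables, 81 met the rule. The 76 core genes were 31 of the small subunit (Rps genes and Rpsa) and 45 of the large subunit (Rpl and Rplp genes), and the paralogs were Rpl3l, Rps27l, Rpl22l1, Rpl39l and Rpl7l1. Rpl39l, with 156 counts in sum, and Rpl13a, with 968, were the lowest genes that met the rule. Rpl24, with 88 counts and exons shared with the transcript Gm28037, and Rpl10l, with 0, fell short of it.

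RNA of mouse knee joints was sequenced in 3 groups of 3 libraries. Of the Non surgery group the labels give only that name. In the Luc and PC2 groups, male C57BL/6 mice had the anterior cruciate ligament cut at 8 weeks of age (ACLT, a model of osteoarthritis). A lentivirus carrying Luc or PC2 went into the joint cavity 1 week after the operation, and the joints were taken another 8 weeks on. Operated joints without virus and unoperated joints with virus are not analysed here, so operation and virus cannot be told apart in the comparison of Luc with Non surgery. The RNA of each group was mixed before sequencing. The 3 libraries of a group are technical repeats of 1 pool, and every p-value below is set against technical spread, with no difference between mice in it.

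Ribosomal proteins bind ribosomal RNA in the nucleolus and leave it as parts of a small subunit, which reads the message, and a large subunit, which joins amino acids. Their messages start with a C followed by a run of pyrimidines, the 5′ TOP motif, through which mTORC1 and LARP1 set their translation. Most tissues use 1 gene for each protein, but a few paralogs replace their parent in some cells: Rpl3l replaces Rpl3 in striated muscle, and Rpl39l replaces Rpl39 in male germ cells.

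RefSeq promoter entries (GRCm38.p6) matched 61 of the 81 genes and held 66 annotated starts of 56 core genes and 7 starts of the 5 paralogs. The windows shown here set the start of 3 core genes whose values are described below beside that of 4 paralogs, because the start is what the TOP motif is read from. The 3 core genes were picked among those with a C at the annotated start followed by at least 4 C or T. Other genes described below, among them Rpl22, Rpl39 and Rpl7l1, lacked this and are not shown, so the windows are examples and no comparison of core genes with paralogs. Each window has 30 bases, 10 before the annotated start and 20 from it, on the strand of the gene, 5′ to 3′. Capitals mark the run of at least 5 C or T beginning with C that is nearest to the annotated start. Other such runs, as before the start in Rps27l and Rps27, are left in small letters.
Rps6, chr4:86857348-86857377, minus strand: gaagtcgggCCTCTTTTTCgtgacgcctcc
Rps27, chr3:90213629-90213658, minus strand: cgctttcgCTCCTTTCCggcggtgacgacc
Rpl38, chr11:114668570-114668599, plus strand: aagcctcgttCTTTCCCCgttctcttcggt
Rpl3l, chr17:24727816-24727845, plus strand: ttctagctctgtcatttgaCCTCTggtgcc
Rpl22l1, chr3:28805498-28805527, plus strand: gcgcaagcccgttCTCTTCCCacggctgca
Rps27l, chr9:66946076-66946105, plus strand: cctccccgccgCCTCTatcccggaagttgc
Rpl39l, chr16:10170218-10170247, plus strand: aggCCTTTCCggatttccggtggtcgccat
In Rpl38 the marked run began at the annotated start itself. In Rps6 and Rps27 it spanned the start, in Rpl3l, Rpl22l1 and Rps27l it lay after it, and in Rpl39l before it.

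A C at the annotated start followed by at least 4 C or T was found at 13 of 66 core starts (19.7%), at 0 of 7 paralog starts and at 2.51% of 32851 starts of all genes. Such a run beginning within 10 bases of the start was found at 54.5% of core starts, 57.1% of paralog starts and 30.7% of all starts. Motifs were searched on both strands in 300 bases, 250 before the start and 50 from it. CCGGAAG, a core of ETS-type sites, was found in 37.9% of core windows against 8.86% of all windows, and AAGATGGC, a core of YY1 sites, in 10.6% against 2.75%. TATAAA was in 9.09% of core windows and 13.6% of all windows. CAGCTG, an E-box that myogenic factors can bind, was in 3.03% of core windows and 16.3% of all. These are matches of letters and not measured binding.

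Each library held between 17835989 and 19004316 counts in genes. Of 17478 genes tested in 1 edgeR quasi-likelihood fit, including all 81 ribosomal protein genes, 58.8% differed between Luc and Non surgery, 34.7% between PC2 and Luc and 62.7% between PC2 and Non surgery. Rises and falls below are those with an adjusted p under 0.05. Levels of single genes are given as CPM (read counts scaled to a common library size with TMM factors). Summed levels of marker lists and levels per kilobase of exon are CPM by library totals alone, without TMM factors. They are therefore not on the scale of the fold changes and single-gene levels beside them. All 14 chondrocyte markers were detected and their summed level was 1172 to 1311 CPM in Non surgery, 6663 to 6844 with Luc and 10540 to 10720 with PC2 libraries. The 9 fibroblast markers summed to 8735 to 9600, 37890 to 39060 and 42980 to 43500 CPM. All 9 rose in Luc against Non surgery, while in PC2 against Luc 4 rose and 5 fell (median -0.10 on the log2 scale). With library totals alone in place of TMM factors, the median log2 fold change of all genes between Luc and Non surgery was 0.19 in place of 0.02, and the calls were 7754 higher and 3304 lower in place of 5431 and 4848. Fold changes from Non surgery below are relative to TMM scaling.

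The ribosomal protein genes together held a small share of counts that was lowest without surgery and highest with PC2. These are shares of counted reads, and the part of reads that align to several places was not examined. The 81 genes took 1.46%, 1.60% and 1.56% of gene counts in the Non surgery libraries, 1.82%, 1.91% and 1.77% in Luc and 1.97%, 2.01% and 1.995% in PC2. The means were 1.54% ± 0.07 (SD, n = 3), 1.84% ± 0.07 and 1.99% ± 0.02, and no library of 1 group reached into the range of another. Both subunits shared this order. The 31 small subunit genes held 0.666% ± 0.033, 0.811% ± 0.031 and 0.883% ± 0.009, and the 45 large subunit genes 0.844% ± 0.034, 1.01% ± 0.04 and 1.09% ± 0.01.

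The 5 paralogs had another order, with 0.0293% ± 0.0010 of counts in Non surgery, 0.0183% ± 0.0002 with Luc and 0.0220% ± 0.0004 with PC2. Mitochondrially encoded (mt-) transcripts took 9.94% ± 0.92, 5.33% ± 0.42 and 5.72% ± 0.13 of counts in the 3 groups. Without them in the total, the share of the 81 genes was 1.71%, 1.94% and 2.11%. In joints sequenced whole, fewer cells of a type and less RNA per cell cannot be told apart, here and in every comparison below. The part that the changed mix of cartilage, fibroblast and muscle transcripts had in these shares was not tested.

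**Figure D1:**
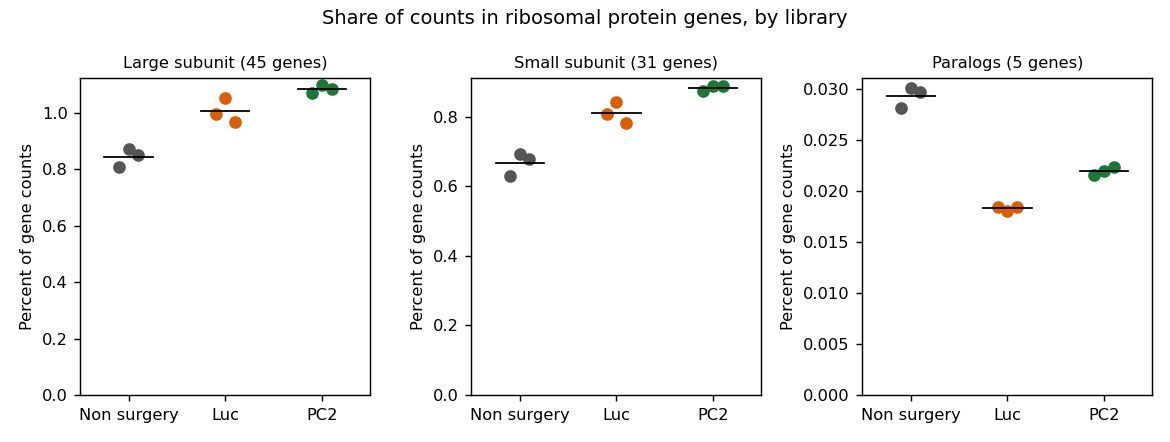
Share of gene counts (percent, y axis) in the large subunit, small subunit and paralog genes in each of the 9 libraries; points are libraries and lines group means. Large subunit genes have a mean of 0.844% in Non surgery and 1.09% in PC2, while the paralogs are highest in Non surgery at 0.0293%.

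The first comparison asks what operated joints with the Luc virus show against unoperated joints. Ribosomal protein messages were higher by a small factor. Of the 81 genes, 36 rose and 2 fell, where 31.1% of all tested genes rose and 27.7% fell. Their median log2 fold change was 0.14 against 0.02 for all genes. Libraries of Luc lay wholly above those of Non surgery for 27 genes and wholly below for 2, against a background of 33.1% and 29.8%. The count above was near its background share, and the count below was far under it.

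Both genes that fell, Rpl3l and Rps27l, were paralogs. Of the core genes, 17 of 31 in the small subunit and 18 of 45 in the large subunit rose, with medians of 0.13 and 0.14, and 0 of 76 fell in edgeR's test (0 also at an unadjusted p under 0.05). DESeq2 gave 30 of the 81 genes higher and the number lower was again 2. The largest rises were of Rpl22l1, Rps27, Rpl34 and Rplp1. The number of genes that rose depended on the scaling, since 73 rose with library totals alone, and on the libraries, since it lay between 25 and 44 with 1 library left out. The number that fell was 4 without Non surgery replicate 1.

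The second comparison, PC2 against Luc, sets 2 operated groups side by side that differ in the gene the virus carried. Of the 81 genes, 39 rose, where 16.1% of all tested genes rose and 18.6% fell. In edgeR's test 0 fell (0 at an unadjusted p under 0.05, where 47 were higher), and DESeq2 called 39 higher and 0 lower. The median log2 fold change was 0.16 against 0.01 for all genes. PC2 libraries lay wholly above Luc libraries for 42 genes and wholly below for 1, against 23.3% and 24.7% of all genes.

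Of the core genes, 19 of 31 in the small subunit and 18 of 45 in the large subunit rose, with a median of 0.16 in each. The 4 largest rises were of Rps28, Rps29, Rpl3l and Rpl38. None of the 81 genes reached a fold change of 2, which 3.31% of all tested genes passed. With 1 library left out, between 31 and 46 genes rose and 0 fell.

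PC2 against Non surgery shares its libraries with both comparisons above and is no independent evidence. Of the 81 genes, 66 rose and 3 fell (Rpl3l, Rps27l and Rpl4), where 31.5% of all tested genes rose and 31.2% fell. The median log2 fold change was 0.29 against 0.01 for all genes, and libraries did not overlap for 63 genes that were higher and 3 that were lower, against 33.5% and 32.5%. By subunit, 28 of 31 small subunit and 36 of 45 large subunit core genes rose. The largest rises were of Rps27a, Rpl22l1, Rpl39l and Rps27, and the first of these was smaller with the pseudogenes named after the gene added, as described below.

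**Figure D2:**
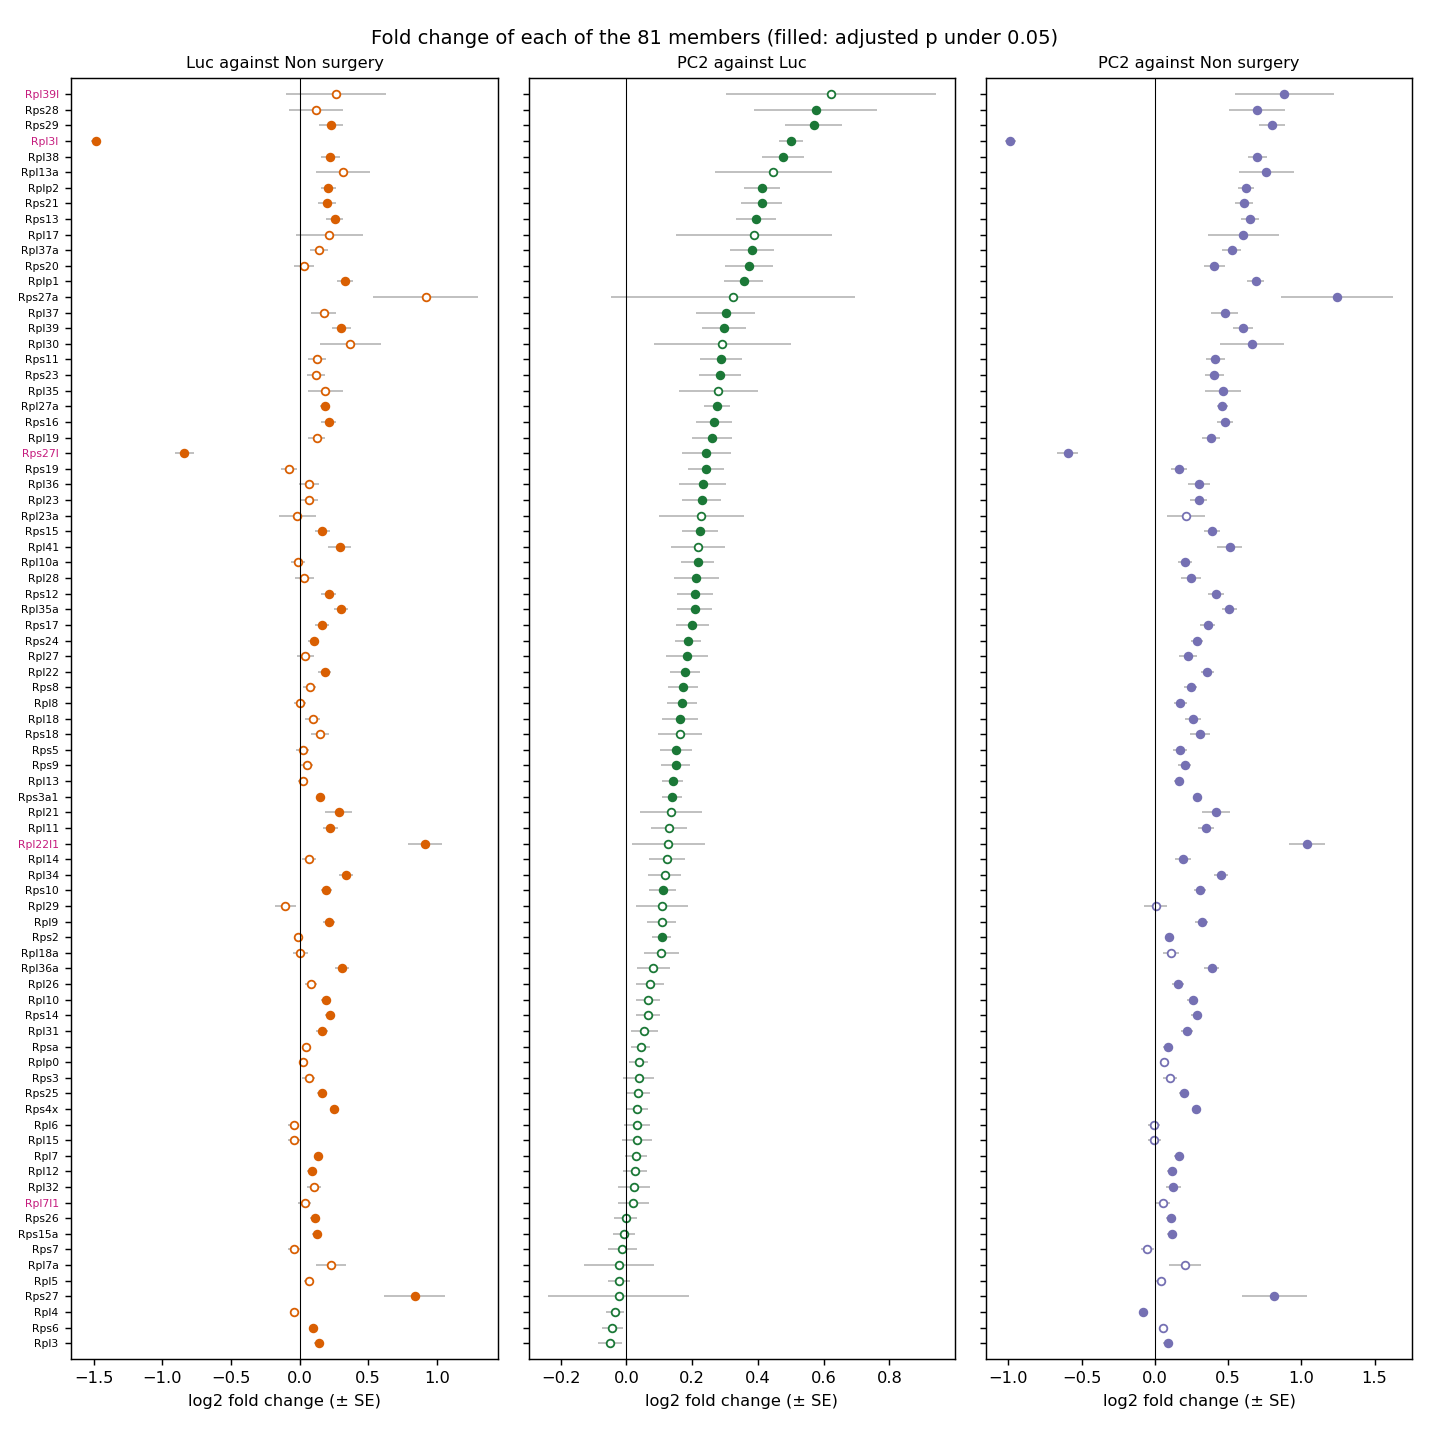
Log2 fold change (x axis, ± SE) of each of the 81 genes in the 3 comparisons, sorted by PC2 against Luc; filled points have an adjusted p under 0.05 and paralog names are in pink. In PC2 against Luc 39 points are filled and all lie above 0, while Rpl3l and Rps27l stand far below 0 in both comparisons with Non surgery.

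Rpl3l (chromosome 17, 24727820 to 24736143, plus strand) encodes the form of the large subunit protein L3 used in skeletal and heart muscle. It was at 185.8, 192.1 and 193.4 CPM in Non surgery, 68.5, 66.7 and 68.7 with Luc and 95.6, 97.2 and 95.6 with PC2 libraries. The 3 groups did not overlap, with Non surgery highest and Luc lowest. The gene fell by 1.49 on the log2 scale in Luc against Non surgery (SE 0.04, adjusted p = 1.6e-15) and rose by 0.50 ± 0.04 in PC2 against Luc (adjusted p = 2.6e-08). In PC2 against Non surgery it fell by 0.99 (adjusted p = 2.8e-13).

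Rpl3 (chromosome 15, 80077791 to 80091868, minus strand), the parent gene, encodes the protein that lies close to the peptidyl transferase centre. It was at 380.4, 406.5 and 403.1 CPM in Non surgery, 441.1, 452.3 and 418.2 with Luc and 431.1, 416.9 and 418.3 with PC2. Luc libraries were above Non surgery libraries, and PC2 libraries overlapped with Luc. Rpl3 rose by 0.14 ± 0.04 in Luc against Non surgery (adjusted p = 0.0037), and its log2 fold change in PC2 against Luc was -0.05 ± 0.04 (adjusted p = 0.31). Its rise of 0.09 in PC2 against Non surgery (adjusted p = 0.044) was not called with any one of 3 PC2 libraries left out, nor by DESeq2, with adjusted p-values from 0.050 to 0.22 over 9 settings that lost the call.

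The level of Rpl3l relative to Rpl3 depends on which length each gene is given. Per kilobase of all annotated exon bases, Rpl3l in Non surgery libraries was at 94.4%, 91.3% and 92.7% of the level of Rpl3. It stood at 30.0%, 28.5% and 31.8% in Luc and at 42.8%, 45.1% and 44.2% in PC2 libraries. An alternative added after the data were seen used 1 transcript per gene, the shortest of those with the longest coding sequence. With its length, Rpl3l was at 47.2% ± 0.8 (SD, n = 3), 15.3% ± 0.8 and 22.4% ± 0.6. Neither the scaling between libraries nor the choice of length changes how the log2 ratio differs between groups. The log2 difference was -1.63 between Luc and Non surgery and 0.55 between PC2 and Luc, both with an exact two-sided permutation p = 0.1, the smallest that 3 against 3 libraries allow (adjusted p = 0.19 over 15 ratio tests).

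Muscle genes moved with Rpl3l. All 17 tested fast muscle markers fell in Luc against Non surgery, with a median log2 fold change of -1.21 (range -2.13 to -0.50). By library totals alone, the 18 listed markers summed to 70860 to 74160 CPM in Non surgery, 32790 to 33080 with Luc and 38130 to 38220 with PC2. All 11 slow and oxidative muscle markers fell too, with a median of -3.004. In PC2 against Luc, 13 of 17 fast markers rose and 2 fell (median 0.25), and 8 of 11 slow markers rose and 1 fell (median 0.42). Myh2, a fast oxidative myosin, rose by 1.13 and Casq1, the calcium store protein of fast fibres, by 0.67. The part of muscle content in the values of Rpl3l was not tested.

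Rps27l (chromosome 9, 66946086 to 66949516, plus strand) is the paralog of Rps27, a small subunit protein with a zinc finger, and is known as a target of p53. It was at 48.1, 60.2 and 51.9 CPM in Non surgery, 30.1, 30.8 and 28.7 with Luc and 37.8, 34.6 and 33.7 with PC2. As with Rpl3l, the groups did not overlap and Luc was lowest. Rps27l fell by 0.84 in Luc against Non surgery (SE 0.07, adjusted p = 3.1e-08) and by 0.60 in PC2 against Non surgery (adjusted p = 1.6e-06). It rose by 0.24 ± 0.07 in PC2 against Luc (adjusted p = 0.018), a call lost without Luc replicate 3 or without PC2 replicate 1 (adjusted p = 0.070 to 0.085).

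Rps27 itself (chromosome 3, 90212522 to 90213651, minus strand) varied more between libraries of a group than its paralog. It was at 34.4, 81.03 and 36.7 CPM in Non surgery, 87.8, 100.4 and 84.4 with Luc and 72.2, 91.0 and 105.0 with PC2. Non surgery replicate 2 stood far above the other 2 libraries of its group, at more than the level of PC2 replicate 1. Rps27 rose by 0.84 ± 0.22 in Luc against Non surgery (adjusted p = 0.0041) and by 0.82 ± 0.22 in PC2 against Non surgery (adjusted p = 0.0046), and DESeq2 called neither (adjusted p = 0.054 and 0.055). Its log2 fold change in PC2 against Luc was -0.02 ± 0.21 (adjusted p = 0.95). Rps27l was at 151.6% ± 49.1 of the level of Rps27 per kilobase in Non surgery, 42.2% ± 2.6 with Luc and 52.2% ± 13.3 with PC2. With transcript lengths it was below Rps27 in each group, at 71.2% ± 23.0, 19.8% ± 1.2 and 24.5% ± 6.2.

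Rpl22l1 (chromosome 3, 28805436 to 28807424, plus strand) went the other way from the paralogs above. It is the paralog of Rpl22, an RNA-binding protein of the large subunit that is known to hold Rpl22l1 down. Rpl22l1 was at 4.92, 5.12 and 5.23 CPM in Non surgery, 8.94, 8.56 and 11.3 with Luc and 9.54, 10.7 and 11.2 with PC2. Both operated groups were above every Non surgery library and overlapped with each other. Rpl22l1 rose by 0.91 ± 0.13 in Luc against Non surgery (adjusted p = 9.0e-06) and by 1.04 ± 0.12 in PC2 against Non surgery (adjusted p = 1.6e-06). Its log2 fold change in PC2 against Luc was 0.13 ± 0.11 (adjusted p = 0.4).

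Rpl22 rose as well, but by less. It was at 96.5, 96.5 and 105.4 CPM in Non surgery, 111.2, 119.8 and 107.4 with Luc and 129.0, 126.9 and 126.9 with PC2, with no overlap between groups. Its log2 fold changes were 0.18 ± 0.05 in Luc against Non surgery (adjusted p = 0.0031) and 0.18 ± 0.05 in PC2 against Luc (adjusted p = 0.0067). Rpl22l1 stood at 7.49% ± 0.26 of the level of Rpl22 per kilobase in Non surgery, 12.5% ± 2.5 with Luc and 12.02% ± 1.09 with PC2, or 4.40% ± 0.15, 7.35% ± 1.48 and 7.05% ± 0.64 with transcript lengths. The log2 ratio was 0.72 higher in Luc than in Non surgery (exact permutation p = 0.1, adjusted p = 0.19).

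Rpl39l was close to the limit of what these libraries count, at 0.54, 0.63 and 0.90 CPM in Non surgery, 0.52, 0.90 and 1.08 with Luc and 1.21, 1.02 and 1.63 with PC2. It passed the test only in PC2 against Non surgery, where it rose by 0.88 ± 0.34 (adjusted p = 0.032). That call was lost in 5 settings, among them DESeq2 and the fits without Non surgery replicate 1 or 2 or PC2 replicate 1 or 3 (adjusted p = 0.052 to 0.14). Of 8 testis germ cell markers, 2 were at 0 in all 9 libraries. By library totals alone, the 8 summed to 1.45 to 3.04 CPM over the 9 libraries. Rpl39, the parent of Rpl39l (chromosome X, 37082520 to 37085402, minus strand), is a short protein in the exit tunnel of the large subunit. It was at 37.8, 46.4 and 40.7 CPM in Non surgery, 47.5, 56.0 and 50.8 with Luc and 64.0, 63.6 and 61.7 with PC2. The groups did not overlap, and Rpl39 rose by 0.30 ± 0.07 in each step (adjusted p = 0.0013 and 0.0027). Rpl39l stood at 2.88% ± 0.82, 2.78% ± 0.89 and 3.52% ± 0.93 of its level per kilobase (1.86% ± 0.53, 1.79% ± 0.57 and 2.27% ± 0.60 with transcript lengths), with overlapping libraries.

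Rpl7l1, a relative of the yeast large subunit assembly factor Rlp7, was at 65.3 to 67.8 CPM in Non surgery, 67.1 to 70.4 with Luc and 65.0 to 73.9 with PC2. It passed no test under TMM scaling (log2 fold changes 0.04, 0.02 and 0.06, adjusted p = 0.53, 0.77 and 0.3), and library totals alone called it higher in both comparisons with Non surgery. Rpl7, its parent, was at 421.9 to 442.8, 459.7 to 487.7 and 477.0 to 498.7 CPM and rose by 0.14 ± 0.03 in Luc against Non surgery (adjusted p = 0.0022).

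**Figure D3:**
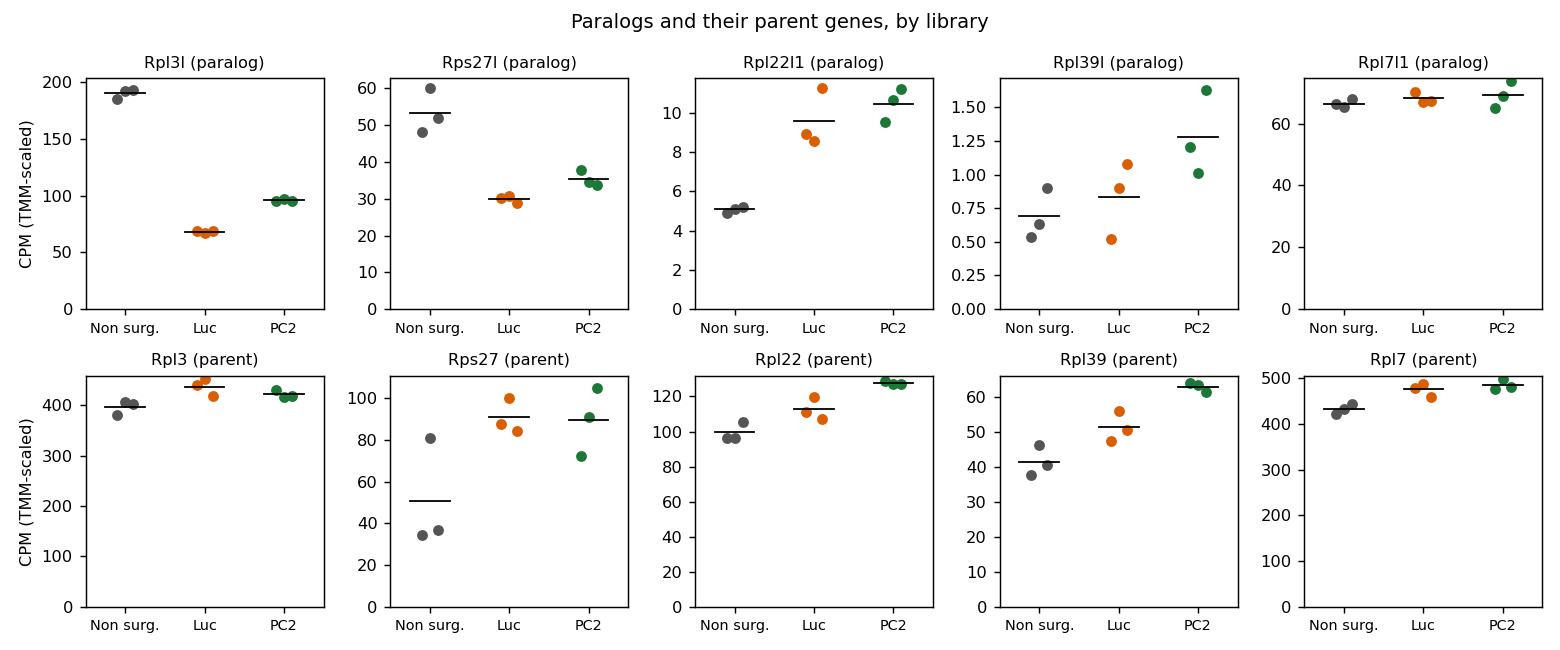
CPM (y axis, from 0) of the 5 paralogs (top) and their parent genes (bottom) in each of the 9 libraries; points are libraries and lines group means. Rpl3l drops from a mean of 190.4 CPM in Non surgery to 68.0 in Luc and 96.1 in PC2 while the group means of Rpl3 lie between 396.6 and 437.2, and Rpl22l1 is higher in both operated groups.

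The stalk of the large subunit, where GTPase factors dock, is built from Rplp0 as the base and dimers of Rplp1 and Rplp2. Its 3 genes did not move alike. Rplp1 (chromosome 9, 61913284 to 61914542, minus strand) was at 211.0, 255.0 and 248.2 CPM in Non surgery, 298.4, 320.4 and 280.4 with Luc and 371.2, 392.6 and 387.2 with PC2. The groups did not overlap, and it rose by 0.33 ± 0.06 in Luc against Non surgery (adjusted p = 0.00015) and by 0.36 ± 0.06 in PC2 against Luc (adjusted p = 0.00022).

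Rplp2 was at 131.3, 155.0 and 141.9 CPM in Non surgery, 154.7, 176.1 and 164.6 with Luc and 216.9, 224.6 and 217.8 with PC2. Luc replicate 1 was just below Non surgery replicate 2, and all PC2 libraries were above all others. It rose by 0.21 ± 0.05 in Luc against Non surgery (adjusted p = 0.0034) and by 0.41 ± 0.05 in PC2 against Luc (adjusted p = 2.0e-05). Rplp0 was at 957.3, 1026 and 1019 CPM, then 1023, 1025 and 1013, then 1041, 1063 and 1038, and passed no test under TMM scaling. Its log2 fold changes were 0.03, 0.04 and 0.07, the last in PC2 against Non surgery (adjusted p = 0.061), where 4 other settings called it higher (adjusted p = 7.9e-06 with library totals alone and up to 0.044). Library totals alone also called it higher in Luc against Non surgery. PC2 libraries were nonetheless all above Luc libraries for Rplp0.

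Rpl5 and Rpl11 form a particle with 5S ribosomal RNA that, when not built into ribosomes, binds and inhibits Mdm2, the ligase for p53. Rpl11 was at 152.3, 154.4 and 163.5 CPM in Non surgery, 167.6, 200.7 and 180.2 with Luc and 197.1, 194.1 and 208.8 with PC2. Both operated groups were above Non surgery. Rpl11 rose by 0.22 ± 0.05 in Luc against Non surgery (adjusted p = 0.0021) and by 0.35 in PC2 against Non surgery (adjusted p = 2.8e-05). Between PC2 and Luc its log2 fold change was 0.13 ± 0.05 (adjusted p = 0.075), and 7 other settings, DESeq2 among them, called it higher.

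Rpl5 passed no test under TMM scaling, and with library totals alone it was called higher in both comparisons with Non surgery. It had log2 fold changes of 0.07, -0.02 and 0.04 and levels between 366.7 and 398.9 CPM over the 9 libraries. Rps6, the small subunit protein that S6 kinase phosphorylates, was at 531.0 to 561.2 CPM in Non surgery, 574.7 to 594.1 with Luc and 551.2 to 585.9 with PC2. It rose by 0.10 ± 0.03 in Luc against Non surgery (adjusted p = 0.014), a call that 5 settings did not make (adjusted p = 0.050 to 0.087), among them the fits without Non surgery replicate 1, Luc replicate 1 or Luc replicate 2. Its log2 fold change in PC2 against Luc was -0.04 (adjusted p = 0.34). Rpsa, a small subunit protein also known as a laminin receptor, had log2 fold changes of 0.04 in both steps and rose by 0.09 in PC2 against Non surgery (adjusted p = 0.017), a call lost if Non surgery replicate 1 or PC2 replicate 2 was left out (adjusted p = 0.082, 0.086).

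The largest changes in core genes between PC2 and Luc were in 3 of the shortest ribosomal proteins. Rps29 (chromosome 12, 69157722 to 69159186, minus strand), a zinc-binding protein of the small subunit head, was at 39.3, 48.0 and 40.0 CPM in Non surgery, 45.01, 57.4 and 47.0 with Luc and 68.3, 78.6 and 74.8 with PC2. All PC2 libraries were above all others, and Luc overlapped with Non surgery. It rose by 0.57 ± 0.09 in PC2 against Luc (adjusted p = 8.3e-05). Its rise of 0.23 in Luc against Non surgery (adjusted p = 0.036) was lost in 7 settings (adjusted p = 0.053 to 0.26), among them the fits without Non surgery replicate 1 or 3 or Luc replicate 2.

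Rpl38 (chromosome 11, 114668524 to 114672331, plus strand), a large subunit protein known for skeletal patterning defects when 1 copy is lost, was at 36.8, 34.1 and 38.8 CPM in Non surgery, 37.9, 46.1 and 44.1 with Luc and 58.1, 60.6 and 59.4 with PC2. Here too the PC2 libraries stood apart from the other 6. It rose by 0.48 ± 0.06 in PC2 against Luc (adjusted p = 2.8e-05) and by 0.22 ± 0.07 in Luc against Non surgery (adjusted p = 0.0091), the latter not without Luc replicate 2 (adjusted p = 0.064).

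Rps28 (chromosome 17, 33819027 to 33824562, minus strand), which lies near the mRNA exit of the small subunit, was at 30.0, 40.6 and 32.5 CPM in Non surgery, 21.4, 47.2 and 43.8 with Luc and 53.9, 61.7 and 51.6 with PC2. Luc replicate 1 was far below the other Luc libraries, and every PC2 library was above every Luc and Non surgery library. Rps28 rose by 0.58 ± 0.19 in PC2 against Luc (adjusted p = 0.025), a call lost without PC2 replicate 2 and with DESeq2 (adjusted p = 0.089 to 0.15). Its log2 fold change of 0.12 in Luc against Non surgery was 0.40 and called without Luc replicate 1, and was -0.08 or -0.01 without Luc replicate 2 or 3. Rpl34, a large subunit protein, was at 102.5 to 119.6 CPM in Non surgery, 136.9 to 140.3 with Luc and 145.9 to 156.2 with PC2, and rose by 0.34 ± 0.05 in Luc against Non surgery (adjusted p = 1.9e-05). In PC2 against Luc its log2 fold change was 0.12 ± 0.05 (adjusted p = 0.078), and 6 other settings called it higher (adjusted p = 0.011 to 0.048).

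Levels per kilobase of exon, as CPM by library totals alone and averaged over the 9 libraries, were highest for Rplp1 (620.6), Rps3a1 (620.5), Rplp0 (617.0) and Rpl4 (397.0). They were lowest for Rpl39l (1.14), Rpl13a (2.77), Rpl22l1 (4.28) and Rpl30 (6.90). How far reads that align to several places affect these levels was not examined. With the length of 1 coding transcript in place of all exon bases, Rplp0 ranked first at 753.8, Rps6 second at 647.8, and Rpl4 eighth at 518.0. Rps3a1, a small subunit protein, was at 537.1 to 551.9 CPM in Non surgery, 583.9 to 620.5 with Luc and 656.4 to 673.8 with PC2, and rose by 0.15 ± 0.03 and 0.14 ± 0.03 in the 2 steps (adjusted p = 0.00041 and 0.0020).

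Rpl4, a large subunit protein with a loop in the exit tunnel, was the only core gene that fell in any of the 3 comparisons. It was at 796.8, 841.3 and 820.9 CPM in Non surgery, 811.7, 789.3 and 786.1 with Luc and 772.9, 778.9 and 778.4 with PC2. It fell by 0.08 in PC2 against Non surgery (SE 0.03, adjusted p = 0.025) under TMM scaling, a call lost in 4 of the fits without 1 library (Non surgery replicate 2 or any PC2 replicate, adjusted p = 0.056 to 0.071). With library totals alone its log2 fold change was 0.08 in the other direction.

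Rpl13a, a large subunit protein, was at only 4.03 to 5.11 CPM in Non surgery, 4.11 to 6.68 with Luc and 6.03 to 9.28 with PC2. Exons of other genes on either strand cover 35.4% of its exon bases, with the largest overlap by the transcript Gm45713. Reads in shared bases can stay uncounted, which also depends on the strand setting of the counting, and that is not known. It rose by 0.76 ± 0.19 in PC2 against Non surgery (adjusted p = 0.0022). Shared exon bases also touch Rpl23a (62.3%, largest overlap by Tlcd1) and Rpl35 (66.2%, largest overlap by Wdr38), which were chosen after their values were seen.

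By known groups, 6 of 10 genes mutated in Diamond-Blackfan anaemia, a failure of red cell production, rose in Luc against Non surgery, 5 in PC2 against Luc and 8 in PC2 against Non surgery. The shares that rose were 44.4%, 48.2% and 81.5% of the 81 ribosomal protein genes and 31.1%, 16.1% and 31.5% of all tested genes. In edgeR's test 0 fell in each, and 0 fell at an unadjusted p under 0.05. Rpl35a rose by 0.30 and 0.21 in the 2 steps and Rps19, the gene most often mutated, by 0.24 in PC2 against Luc, while its log2 fold change in Luc against Non surgery was -0.08 (adjusted p = 0.24). The 11 detected erythroid markers all fell in Luc against Non surgery, with a median of -0.64. All 4 X-linked genes, Rpl10, Rpl36a, Rpl39 and Rps4x, rose in Luc against Non surgery, by 0.19, 0.31, 0.30 and 0.25, and of these only Rpl39 rose in PC2 against Luc.

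Core genes with short coding sequences rose more often and by more than those with long ones. Among the 38 core genes with a coding sequence of up to 462 bases, the median length, 24 rose in Luc against Non surgery, 24 in PC2 against Luc and 38 in PC2 against Non surgery. Among the 38 longer ones, 11, 13 and 26 rose. For the longer genes these shares are 28.95%, 34.2% and 68.4%, against 31.1%, 16.1% and 31.5% of all tested genes, so in Luc against Non surgery their share was near the background. The median log2 fold changes were 0.18 and 0.07 for the shorter and longer genes in Luc against Non surgery, 0.22 and 0.11 in PC2 against Luc, and 0.41 and 0.18 in PC2 against Non surgery. The split was added after the data were seen.

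Across the 76 core genes, Spearman's correlation between coding length and log2 fold change was -0.49, -0.52 and -0.67 in the 3 comparisons, and Pearson's r was -0.40, -0.58 and -0.62. These are descriptions across genes of the same libraries, and the comparisons share groups. Across all 14607 tested protein-coding genes, Spearman's correlation was 0.02, -0.28 and -0.11. In PC2 against Luc, other protein-coding genes of up to 250 coding bases had a median log2 fold change of 0.21 and 38.97% of 136 rose, and those of 250 to 500 bases a median of 0.14 and 31.3% of 1048 rose. Core ribosomal genes had medians of 0.44 (6 genes) and 0.21 (38 genes) in those length classes, and 83.33% and 52.63% rose. Other genes above 2000 bases had a median of -0.08.

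In Luc against Non surgery the medians of other genes were 0.05 and 0.01 in the 2 shortest classes, against 0.23 and 0.16 for core ribosomal genes, so a length trend of that kind was not seen outside the ribosomal genes there. Libraries of 1 group also differed in this. Spearman's correlation between coding length and the deviation of the core genes from their 9-library mean was 0.66, 0.26 and 0.63 in the Non surgery libraries, 0.38, -0.33 and -0.11 in Luc and -0.51, -0.65 and -0.57 in PC2. The part of fragment size or RNA quality in the length trend was not tested.

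**Figure D4:**
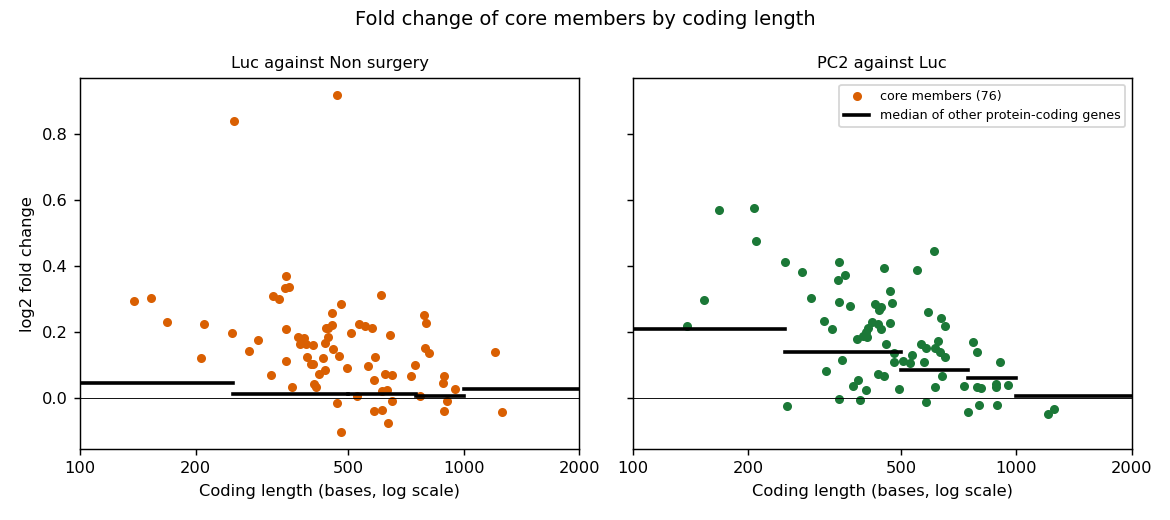
Log2 fold change (y axis) of the 76 core genes against coding length in bases (log axis) in Luc against Non surgery and PC2 against Luc; points are genes and black bars the median of other protein-coding genes in length classes. The median of core genes of up to 462 bases is 0.18 and 0.22 in the 2 panels, against 0.07 and 0.11 for longer ones, although Rps27a, with 468 bases, is the highest point in Luc against Non surgery, and the black bars decline from 0.21 to 0.01 only in PC2 against Luc.

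Some of these genes have pseudogenes named after them that also took counts. They were matched by name only, as the symbol of a gene followed by -ps, and how alike the sequences are was not measured. Pseudogenes named otherwise, such as Rpl6l with 4104 counts in sum and Rps4l with 1162, are not among them. The annotation holds 293 pseudogenes with such -ps names after 60 of the 81 genes, 61 of them with at least 100 counts in sum. They took 5.86%, 5.75% and 5.74% of the counts of ribosomal genes and these pseudogenes together in the 3 groups. Between libraries of a group, ribosomal genes of at least 50 CPM had a median coefficient of variation (CV) of 4.83% (71 genes), against 3.15% for all 4489 genes of that level. A CV above 20% was found for 6 of the 81 genes, Rps27a, Rpl17, Rpl30, Rpl39l, Rps27 and Rps28, of which 3 (Rps27a, Rpl17 and Rps27) were among the 71 of at least 50 CPM. That is 4.23% of the 71, against 0.49% of all genes of that level. Rpl17 was chosen after its values were seen.

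Rps27a (chromosome 11, 29545846 to 29548109, minus strand), which encodes ubiquitin fused to a small subunit protein, had 711, 863 and 1810 counts in Non surgery, 3378, 2788 and 1046 with Luc and 3172, 1699 and 4250 with PC2. Rps27a-ps2, a pseudogene on chromosome 9 (83409660 to 83410126), had 1779, 1977 and 1289, then 161, 1381 and 1891, then 1102, 1714 and 524. Within each group the library with the most Rps27a counts had the fewest of the pseudogene. Adding the pseudogenes named after Rps27a brought its CV from 49.0% to 15.5%.

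The gene alone had log2 fold changes of 0.92 ± 0.38 in Luc against Non surgery (adjusted p = 0.051, under 0.05 in 8 of 18 other settings and 0.23 with DESeq2), 0.32 in PC2 against Luc (adjusted p = 0.54) and 1.24 ± 0.38 in PC2 against Non surgery, where it rose (adjusted p = 0.01). With its pseudogenes these were 0.17 (adjusted p = 0.23), 0.20 (adjusted p = 0.19) and 0.37 ± 0.12 (adjusted p = 0.011). Rps27a had the largest rise of PC2 against Non surgery as counted, and the sum with its copies rose by less. Without PC2 replicate 3, and with DESeq2, the gene alone was not called (adjusted p = 0.063 to 0.072). In PC2 against Luc only the fit without the low-count filter called it higher (adjusted p = 1.4e-12), despite its wide spread between libraries. That fit is also among the settings that called it higher in Luc against Non surgery, and that called Rpl11 and Rpl34 higher in PC2 against Luc.

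Rpl17 and the pseudogene Rpl17-ps10 were likewise high and low in opposite libraries. Rpl17 had 1195, 943 and 970 counts in Non surgery, 1262, 1871 and 915 with Luc and 1955, 1074 and 2349 with PC2, and Rpl17-ps10 (chromosome 7, 72648757 to 72649311) had 1344, 1780 and 1764, then 2173, 1481 and 2476, then 1522, 2468 and 1230. Added up with all its pseudogenes, the CV fell from 29.1% to 3.002%, and the sum rose by 0.16 in Luc against Non surgery (adjusted p = 0.0013), where Rpl17 alone was at 0.22 ± 0.24 (adjusted p = 0.47). In PC2 against Luc the sum was at 0.03 (adjusted p = 0.57).

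For Rpl30, a large subunit protein, the CV fell from 28.8% to 8.94%, and the sum with pseudogenes rose by 0.37 in Luc against Non surgery (adjusted p = 0.0013) and by 0.25 in PC2 against Luc (adjusted p = 0.026), neither of which passed for the gene alone (log2 fold changes 0.37 and 0.29, adjusted p = 0.17 and 0.3). Its rise of 0.66 ± 0.22 in PC2 against Non surgery (adjusted p = 0.014) was not called without Non surgery replicate 1 or 3 or PC2 replicate 1, nor by DESeq2 (adjusted p = 0.057 to 0.11). Over the 60 genes with a named pseudogene, adding the copies lowered the CV for 32.

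Rpl7a, also chosen after its values were seen, went the other way. Its pseudogene Rpl7a-ps11 (chromosome X, 166854211 to 166855011) had 3773 counts in PC2 replicate 1 and 41 to 85 in the other 8 libraries, while Rpl7a itself passed no test. It was the only one of the 61 pseudogenes whose highest library was over 10 times its median library. Adding the copies raised the CV of Rpl7a from 12.2% to 31.9%, so sums with pseudogenes are given only as an alternative.

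**Figure D5:**
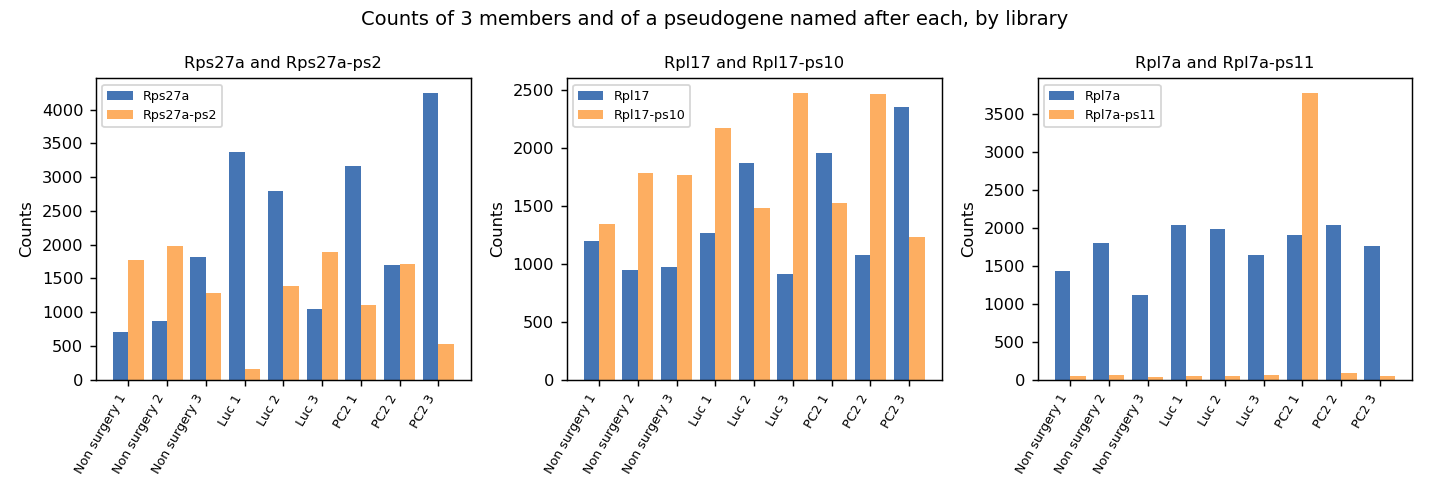
Counts (y axis, from 0) of Rps27a, Rpl17 and Rpl7a (blue) and of 1 pseudogene named after each (orange) in the 9 libraries. Within each group Rps27a-ps2 is lowest in the library where Rps27a is highest, and Rpl7a-ps11 has 3773 counts in PC2 replicate 1 alone.

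Other genes of translation rose and fell in mixed proportions. The background for each list below is that of all tested genes. Of these, 31.1% rose and 27.7% fell in Luc against Non surgery, and 16.1% rose and 18.6% fell in PC2 against Luc. Of 12 elongation factors, 3 rose and 7 fell in Luc against Non surgery (median -0.12), and 4 rose and 4 fell in PC2 against Luc (median -0.00). Eef1a1, the common form of the factor that delivers aminoacyl-tRNA, was at 2998 to 3013 CPM in Non surgery, 3461 to 3481 with Luc and 3052 to 3092 with PC2. It fell by 0.18 in PC2 against Luc (adjusted p = 1.3e-06). Eef1a2, the form of muscle and nerve, was at 745.0 to 790.1, 278.6 to 279.9 and 349.6 to 359.2 CPM, with log2 fold changes of -1.46 and 0.35 in the 2 steps.

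Of 35 initiation factors, 1 rose and 17 fell in Luc against Non surgery, and 6 rose and 9 fell in PC2 against Luc, with medians of -0.09 and -0.03. Among those that fell in Luc against Non surgery were Pabpc4 by 0.57 and Pabpc1 by 0.53, the poly(A)-binding proteins, and Eif4ebp1 by 0.54 and Eif4ebp2 by 0.50, the inhibitors of Eif4e. Eif3a, the largest subunit of eIF3, fell by 0.33 in PC2 against Luc. By edgeR's test, 0 of 16 genes listed for mTORC1 and S6 kinases rose and 11 fell in Luc against Non surgery. At an unadjusted p under 0.05, 0 were higher and 12 lower. Of all tested genes, 31.1% rose and 27.7% fell there. The list also holds inhibitors, such as Tsc1 and Eif4ebp1, and the kinases Rps6ka1, Rps6ka2 and Rps6ka3. Its counts therefore give no direction for mTORC1. Between PC2 and Luc 3 rose and 3 fell, and Mtor was at 57.3 to 58.5 CPM in Luc and 50.3 to 51.4 in PC2, a fall by 0.18.

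Of 22 other TOP messages and ribosome partners, 6 rose and 9 fell in Luc against Non surgery (median -0.04). In PC2 against Luc 5 rose and 6 fell (median -0.05). This list shares genes with those above, among them Eef1a1, Eef2, Pabpc1 and Eif3e, so the counts of the lists are not separate observations. Fau, which encodes the small subunit protein S30 in a fusion and lies outside the symbol rule, moved as the core genes did, at 142.0 to 162.2, 163.1 to 184.5 and 200.6 to 204.4 CPM, and rose by 0.16 and 0.25 in the 2 steps (adjusted p = 0.011 and 0.0012). Btf3 rose by 0.14 and 0.20, and Tpt1 fell by 0.15 and then rose by 0.22. Naca, the partner of Btf3 at the tunnel exit, fell by 0.74 in Luc against Non surgery and was at -0.01 in PC2 against Luc (adjusted p = 0.86). Of 13 detected chaperones and assembly factors, 2 rose and 3 fell in the first step, and 1 rose (Aamp, by 0.28) and 1 fell (Riok1, by 0.18) in the second.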

How the data were processed

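RNA of whole mouse knee joints was measured in 9 libraries. The authors deposited unnormalized counts of reads by Ensembl gene ID, with a table for each library. The submitters' processing notes name HISAT2, HTSeq, DESeq2 and mm10 and no versions, and the strand setting and annotation release are not given in the sources used here. TRIzol extraction and the NEBNext Ultra RNA kit are stated per the labels. HTSeq summary lines (reads outside genes 7.29% to 9.25%, ambiguous reads 5.72% to 6.65%) stayed out of totals and tests. Symbols, coordinates and lengths came from GENCODE M21 (GRCm38), which held 53274 of the IDs.

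All 9 libraries entered 1 edgeR 4.0.16 quasi-likelihood fit in R 4.3.3 (TMM factors, filterByExpr with a minimum count of 10, group factor). The tests were two-sided, with Benjamini-Hochberg adjustment over 17478 genes, and an adjusted p under 0.05 was called. Fold changes are log2 with ± SE. Level per length is CPM per kilobase of exon. This level and the summed levels of marker lists use library totals alone, without TMM factors. Paralog ratios were compared by exact permutation tests, with 0.5 added counts as an alternative. DESeq2 1.42.0, other scalings, filters and left-out libraries were alternatives. In simulated data for PC2 against Luc (17233 genes) the fit called 66% of genes changed 1.5-fold and 23 of 17035 unchanged genes; the ribosomal changes were mostly smaller. Libraries of a group differed by more than counting noise (chi-square per degree of freedom 3.94 to 8.67).

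The genes and lists were chosen with earlier results of these data known. Named genes were the paralogs and their parents, the 4 largest called rises and falls per comparison, Rplp0, Rplp1, Rplp2, Rpsa, Rpl5, Rpl11, Rps6 and Rps27a, and the 4 highest and 4 lowest levels per length. From other lists, up to 4 genes with the largest called change could be named. Marker lists for B cell precursors, neutrophils, macrophages, adipocytes and proliferation were also counted; their median log2 fold changes in Luc against Non surgery and PC2 against Luc were 2.71 and -0.60, -0.42 and 0.12, -0.06 and 0.03, -0.03 and 0.86, and -0.25 and -0.16. The level of the gene carried by the virus is not reported here.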

Additional observations from a re-analysis of the deposited data

How the results depend on the processing

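Over 18 alternatives to each of 78 results, 1296 of 1404 values kept their direction and side of the threshold, 46 lost a call, 49 gained one and 13 reversed. With library totals alone, 73 of the 81 genes were higher in Luc against Non surgery, and the median log2 fold changes were 0.30 there and 0.45 in PC2 against Non surgery. The values of Rpl4 were then 0.12 and 0.0807. With upper-quartile factors, Rplp0 was at -0.0007 in Luc against Non surgery, and Rpl5 and Rps27 at 0.013 and 0.0111 in PC2 against Luc. The cause of these shifts was not tested.

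With 1 library left out, the genes that rose numbered 25 to 44, 31 to 46 and 59 to 68 in the 3 comparisons, and those that fell 2 to 4 (4 without Non surgery replicate 1), 0 to 0 and 2 to 3. The medians lay between 0.09 and 0.15, 0.13 and 0.20, and 0.26 and 0.31. Single values changed sign in these fits: in Luc against Non surgery Rplp0 (-0.0104 to 0.0405), Rps28 (-0.0847 to 0.40) and the log2 ratio of Rpl39l to Rpl39 (-0.30 to 0.18), and in PC2 against Luc Rpl7l1 (-0.0248 to 0.0655), Rps27 (-0.15 to 0.11), Rps27a (-0.0264 to 0.64) and the ratios of Rpl22l1 to Rpl22 (-0.17 to 0.11) and Rpl7l1 to Rpl7 (-0.0647 to 0.0224).

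Over all tested genes, libraries of the same number did not deviate together (correlations -0.06 to 0.09). In the core genes, however, the correlation of deviation with coding length was lowest in replicate 2 of each group (0.26, -0.33 and -0.65). A replicate block gave 44 higher and 2 lower, 45 and 0, and 70 and 3. The main fit, without a block, had 36 and 2, 39 and 0, and 66 and 3. Whether the numbers mark a shared step of handling is not known. With 1 pool per group, differences between mice cannot be seen, and genes of a few CPM such as Rpl39l and Rpl13a are limited by depth.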

Other observations

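Mitochondrial ribosomal proteins, a list added after the data were seen, had a median below 0 in Luc against Non surgery, where that of the cytosolic ones was above 0. Of 74 tested genes, 2 rose and 42 fell there, with a median log2 fold change of -0.24, where 31.1% of all tested genes rose and 27.7% fell. In PC2 against Luc 27 rose, with a median of 0.17, and by edgeR's test 0 fell (0 also at an unadjusted p under 0.05), beside 39 rises and a median of 0.16 for the cytosolic set. Of all tested genes, 16.1% rose and 18.6% fell there. In PC2 against Non surgery 8 rose and 25 fell, with a median of -0.08, where 66 of the cytosolic genes rose. Of all tested genes, 31.5% rose and 31.2% fell there, so the mitochondrial share that fell was near the background. The difference between the 2 families was not tested.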
